A study of Mus musculus with 2 samples.

Results

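Cells that the authors labelled LSC were 533 of 17808 cells in a single-cell RNA-seq study of the mouse corneal epithelium. They were found by 1 rule, the LSC label in the deposited cell table, which gives each cell 1 of 8 labels. The diabetic library held 331 LSC cells and the control library 202. Both came from male C57BL/6J mice aged 20 weeks, and each was 1 pool of 4 corneas taken from 2 mice. The diabetic mice had received streptozotocin, a toxin of the insulin-producing beta cells, as 1 injection of 160 mg/kg. Their blood glucose stayed over 250 mg/dL through the 12 weeks of the study. The control mice had received sodium citrate buffer. The epithelium was separated enzymatically and made into single cells with trypsin, and libraries were made with the Chromium 3′ v3.1 assay. That assay counts each captured RNA molecule once through a unique molecular identifier (UMI). Each group being a single library, no test was possible and the spread between animals is unknown. Every interval below is a 95% interval that covers counting error only. The hour of the day at which corneas were taken is not given in the sources used here.

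The limbus is the ring at the edge of the cornea where the corneal epithelium borders the conjunctiva. Its basal layer holds stem cells whose daughters move toward the centre of the cornea, divide as transit-amplifying cells and then rise through wing and squamous layers. Limbal cells are known for keratins 14 and 15, for the transcription factor p63 and, in mice, for the secreted hormone subunit Gpha2. They contain less of the corneal keratin Krt12 than the central cornea does. The table's remaining labels are Immune, Conj, Squam, Wing, TAC2, TAC1 and Basal, and the abbreviations are not spelled out in the sources used here.

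The LSC cells yielded 4604012 UMIs in the diabetic library and 2178569 in the control library. The median cell had 12284 UMIs and 3061 genes in the diabetic library, and 9260 UMIs and 2669 genes in the control library. The median mitochondrial share of UMIs in LSC cells was 2.72% in the diabetic and 2.69% in the control library, so the libraries were close in this measure and differed in depth. No cell barcode was shared between the LSC cells of the libraries, and 18 barcodes were shared among all cells. A level below is CPM, the counts of a gene summed over the LSC cells of a library and scaled to the same total in both libraries. A gene is called higher or lower by a rule of size. The rule asks that its CPM differ at least 1.5-fold, that the libraries together hold at least 50 of its counts, and that the 2 Poisson intervals lie apart.

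The label matched its markers. All 5 markers had their highest epithelial level in LSC cells, in both libraries. Their summed level was 10274 CPM in diabetic and 10369 CPM in control LSC cells, against 1839 CPM in diabetic and 1269 CPM in control TAC2 cells of the same libraries, the next highest epithelial label. Since the labels were made by the authors from these counts, the comparison of LSC with other labels is a description. The list was not particular to epithelium, because Apoe also reached 6465 CPM in the 10 diabetic and 541 CPM in the 26 control Immune cells. Immune, endothelial and stromal markers were low. The 8 immune markers summed to 3.04 CPM in diabetic LSC cells, where 4 of them were at 0. They summed to 5.51 CPM in control LSC cells, where 2 were at 0. The 2 endothelial markers in the matrix summed to 0.434 CPM in diabetic LSC cells and had no count in control LSC cells, which allows up to 1.38 CPM. Of the stromal list only Dcn is in the matrix, at 23.7 CPM in diabetic and 13.3 CPM in control LSC cells. Markers of other epithelial layers were present. The 3 Wing markers summed to 363 CPM in diabetic and 593 CPM in control LSC cells, above their level in Basal, TAC1 and TAC2 cells, and the 4 Squam markers to 277 CPM in diabetic and 413 CPM in control LSC cells. The 3 goblet markers in the matrix summed to 46.9 CPM in diabetic and 34.9 CPM in control LSC cells. In LSC cells 2 of the 3 were at 0 in each library, so each sum is 1 gene. In Conj cells the 3 summed to 58.1 CPM in the diabetic and 51.8 CPM in the control library. The 2 neutrophil markers in the matrix summed to 29.8 CPM in diabetic and 8.26 CPM in control LSC cells. The part of these cell types in the results was not tested. The 3 corneal markers summed to 14170 CPM in diabetic and 17806 CPM in control LSC cells, and the 7 conjunctival ones to 1927 CPM in diabetic and 1700 CPM in control cells. In Conj cells the conjunctival markers summed to 20433 CPM in the diabetic and 15528 CPM in the control library.

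Upstream sequences are shown for 3 genes that the results turn on: Gpha2, which marks the label, and the clock genes Dbp and Nr1d1, which were each over 4-fold lower in its diabetic cells. They were read from RefSeq on GRCm38.p6, the assembly that mm10 names. Only bases before the start of the gene in both RefSeq and GENCODE M21 are printed, so the lengths differ. Capitals mark the general E-box CANNTG, the hexamer that basic helix-loop-helix factors such as CLOCK recognise in some of its forms, searched on both strands.
Gpha2, chr19:6226151-6226379, plus strand: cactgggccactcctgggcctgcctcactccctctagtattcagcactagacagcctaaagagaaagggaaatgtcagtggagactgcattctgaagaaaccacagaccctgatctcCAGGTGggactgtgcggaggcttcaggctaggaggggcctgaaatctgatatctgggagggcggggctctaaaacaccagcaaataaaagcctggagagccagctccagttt
Dbp, chr7:45704997-45705087, plus strand: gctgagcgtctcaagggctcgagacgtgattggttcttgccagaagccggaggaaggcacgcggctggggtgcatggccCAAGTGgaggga
Nr1d1, chr11:98775378-98775627, minus strand: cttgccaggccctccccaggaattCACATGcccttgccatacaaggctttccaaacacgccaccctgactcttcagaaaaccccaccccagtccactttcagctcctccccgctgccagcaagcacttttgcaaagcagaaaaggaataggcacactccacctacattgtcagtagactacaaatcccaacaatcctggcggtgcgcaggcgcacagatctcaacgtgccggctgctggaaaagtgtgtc
Each printed stretch holds 1 general E-box, and so does the full window of 250 bases of each of the 3 genes. The printed stretches of Dbp (91 bases) and Gpha2 (229 bases) are shorter than that window. Of the 32851 windows of 250 bases before a RefSeq start, 66.2% hold at least 1. The form CACGTG, which is included in CANNTG, was in none of the 3 windows and in 6.02% of all windows. The D-box TTATGNAA, bound by the factor that Dbp encodes, was in none of the 3 and in 3.07% of all.

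Among 8567 genes with 50 or more counts in LSC cells, 199 (2.32%) were at least 2-fold higher in LSC cells than in each of the 6 other epithelial labels, in both libraries. A gene with no count in any epithelial label of a library passes the rule in that library too. The 20 genes with the largest margins after adding 10 CPM to both levels exceeded the next highest epithelial label by between 3.83-fold and 39.7-fold. TAC2, the label with mitotic markers, came second for 16 of the 20 genes in the diabetic library and for 6 in the control library.

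Several of these 20 genes encode secreted or matrix proteins. Gpha2 had 2050 CPM in diabetic and 2875 CPM in control LSC cells, against 268 CPM in diabetic and 120 CPM in control cells of TAC1, its next highest label. Igfbp2, which binds insulin-like growth factors outside the cell, had 406 CPM in diabetic and 222 CPM in control LSC cells, against 34.9 CPM in diabetic and 10.8 CPM in control TAC2 cells. Apoe, the lipid carrier apolipoprotein E, stood at 3134 CPM in diabetic and 3606 CPM in control LSC cells. All 3 were several-fold above every other epithelial label. Igfbp7, a related secreted protein, had 175 CPM in diabetic and 149 CPM in control LSC cells. Abi3bp, an extracellular matrix protein, had 275 CPM in diabetic and 289 CPM in control cells, and Fndc1, which carries fibronectin repeats, 131 CPM in diabetic and 143 CPM in control cells. The copper carrier ceruloplasmin (Cp) had 35.4 CPM in diabetic and 40.4 CPM in control LSC cells, against 1.45 CPM in diabetic Basal and 1.02 CPM in control TAC1 cells, the next highest label of each library. Pltp, a phospholipid transfer protein, had 37.1 CPM in diabetic and 57.8 CPM in control cells. Both were nearly absent from the other epithelial labels.

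Others encode membrane or cytoskeletal proteins. Ifitm3, an antiviral membrane protein, had 707 CPM in diabetic and 651 CPM in control LSC cells. The tetraspanin Cd63 had 112 CPM in diabetic and 123 CPM in control cells, against 9.50 CPM in diabetic and 5.67 CPM in control Conj cells. Tmem176b, a multi-pass membrane protein, had 662 CPM in diabetic and 535 CPM in control LSC cells. Each of these genes had UMIs in Immune cells as well, where Tmem176b stood at 1210 CPM in the diabetic and 593 CPM in the control library. Keratin 14 (Krt14) had 3978 CPM in diabetic and 3016 CPM in control LSC cells, against 1023 CPM in diabetic and 788 CPM in control TAC2 cells. The LIM protein Csrp2 had 176 CPM in diabetic and 259 CPM in control cells, the actin-binding tropomyosin Tpm1 113 CPM in diabetic and 66.6 CPM in control cells, and the transcriptional inhibitor Id3, a target of bone morphogenetic protein signals, 282 CPM in diabetic and 508 CPM in control cells. The set also held Ccdc3, Wfdc18, Rnase4, Tmem176a and Golim4.

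Of a list of 24 proposed limbal stem cell genes, 22 are in the matrix, 17 had 50 or more counts and 8 met the rule for genes raised in LSC cells: Gpha2, Krt14, Ifitm3, Cd63, Cebpd, Cdh3, Sox9 and Vim. Krt15 did not. It had 7937 CPM in diabetic and 10177 CPM in control LSC cells, but 27484 CPM in diabetic and 26994 CPM in control Conj cells. Trp63, the gene of p63, had 228 CPM in diabetic and 212 CPM in control LSC cells and was not 2-fold above each other label. Abcg2, an efflux pump, was near the floor, at 6.30 CPM in diabetic and 2.30 CPM in control LSC cells.

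Genes lower in LSC cells than in each other epithelial label by 2-fold or more, in both libraries, were 18 of 8823 (0.204%). The water channel Aqp5, first in rank after adding 10 CPM to both levels, had 599 CPM in diabetic and 969 CPM in control LSC cells, against 2754 CPM in diabetic and 3152 CPM in control TAC1 cells, the lowest of the other labels. Guca1a, a guanylate cyclase activator of photoreceptors, had 23.7 CPM in diabetic and 32.6 CPM in control cells, and the actin-severing protein Scin 22.4 CPM in diabetic and 32.6 CPM in control cells. Krt12 did not meet that rule because Conj cells had less of it. Its level was 4120 CPM in diabetic and 5443 CPM in control LSC cells, 23664 CPM in diabetic and 21940 CPM in control Basal cells, and 2691 CPM in diabetic and 3775 CPM in control Conj cells. The lower set counted 94 genes when the cells of cluster 1, described below, were left out.

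**Figure D1:**
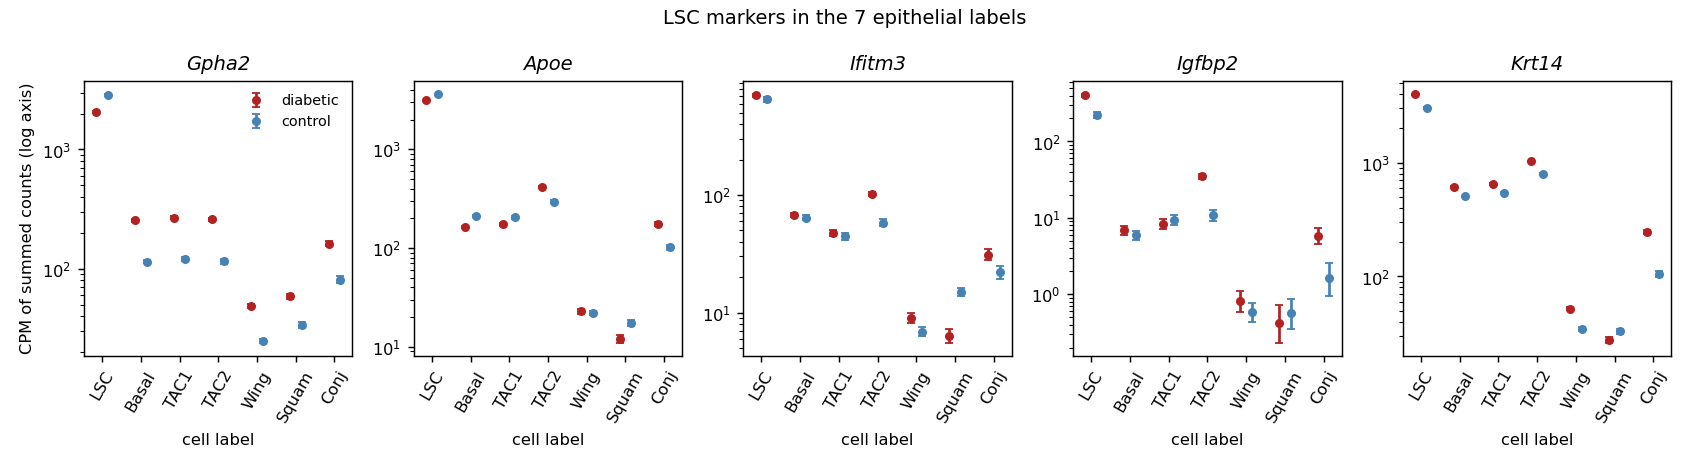
Level of the 5 LSC markers in the 7 epithelial labels, as CPM of summed counts on a log axis. Points are the diabetic (red) and control (blue) library and bars are 95% Poisson intervals. Every marker is highest in LSC cells, and Gpha2 is lower in the diabetic library in LSC cells but higher there in each of the other 6 labels.

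LSC cells were a larger share of the diabetic library. They were 4.04% (3.62 to 4.48) of 8203 diabetic cells and 2.10% (1.83 to 2.41) of 9605 control cells, Clopper-Pearson intervals, a ratio of 1.92 (1.502 to 2.46). The intervals did not overlap. Among LSC and Basal cells alone the LSC share was 12.2% (10.99 to 13.5) in the diabetic and 7.46% (6.50 to 8.52) in the control library. With 1 pool per group, dissection and diabetes cannot be told apart in these shares.

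The LSC cells were not uniform. They fell into 4 clusters, computed without the genes called higher or lower between the libraries and numbered by size. Cluster 1, led by Krt6a, Krt13, Cyp2a5 and the desmosomal cadherin Dsg1a, held 94 diabetic and 75 control cells. No LSC marker was among its 10 leading genes, while Krt13 is on the conjunctival list and Dsg1a and Lypd3 are on the Wing list. The 5 LSC markers summed to 5332 CPM in its diabetic and 4050 CPM in its control cells, the lowest of the 4 clusters, and Krt15 stood at 14068 CPM in diabetic and 17259 CPM in control cells, the highest. It held 38 of the 54 LSC cells with high doublet scores. Because of these genes, results were computed again without cluster 1. Of 92 called genes examined that way, 37 then missed the rule, 21 of them because fewer than 50 counts were left.

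Cluster 2, led by Wfdc18, the phosphatase receptor Ptprz1, Igfbp2 and Ccdc3, held 119 diabetic and 42 control cells. It was 36.0% (30.8 to 41.4) of diabetic LSC cells and 20.8% (15.4 to 27.0) of control LSC cells, and these intervals did not overlap. It had little Krt12, 247 CPM in its diabetic and 567 CPM in its control cells. Cluster 3, led by Igfbp7, Pdzrn4, Id3, Gpha2 and the stem cell factor gene Kitl, held 73 diabetic and 69 control cells. It made up 22.1% (17.7 to 26.9) of diabetic and 34.2% (27.6 to 41.1) of control LSC cells. Its LSC markers summed to 15232 CPM in diabetic and 17645 CPM in control cells, the highest of the 4 clusters in both libraries. Cluster 4, led by the matrix genes Fn1, Sparc and Lamb1 with Slurp1, held 45 diabetic and 16 control cells. Its cells were shallow, with a median of 6763 UMIs, and rich in Krt12, at 10424 CPM in diabetic and 13035 CPM in control cells. The clusters thus differed in limbal, corneal and conjunctival genes inside 1 label.

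**Figure D2:**
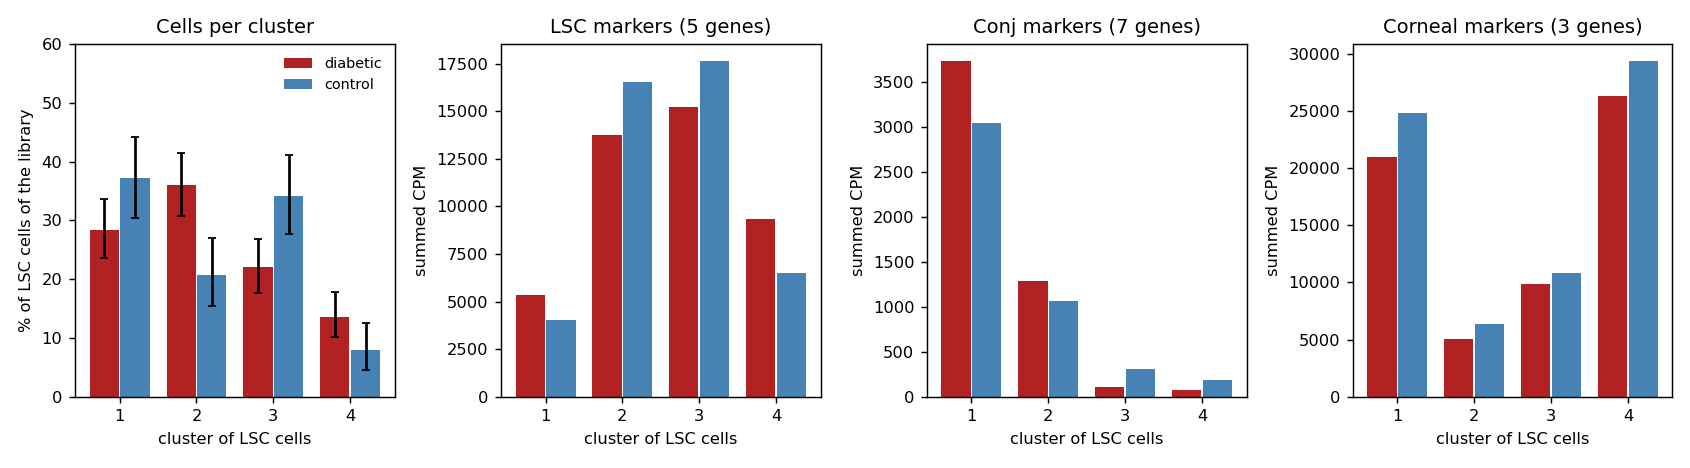
Left panel, share of the LSC cells of each library in each of 4 clusters, with 95% Clopper-Pearson bars; other panels, summed CPM of the LSC, conjunctival and corneal markers in each cluster. Cluster 2 is a larger share of diabetic than of control LSC cells, LSC markers are lowest in cluster 1, and conjunctival markers are highest there.

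Within the label, 225 of 8567 measured genes (2.63%) were higher in diabetic LSC cells and 224 (2.61%) were lower, and the median log2 ratio of all measured genes was 0.01. In Basal cells the same rule called 2.63% of 11526 genes higher and 2.38% lower. The gene lists below were chosen with earlier results of these data known, so counts of called members are a description. Of the 225 higher genes, 36 were among the 199 raised in LSC cells, and of the 224 lower ones 11 were. Genes raised in LSC cells were thus called more often than measured genes as a whole, in both directions. They were higher for 36 of 199 against 225 of 8567, and lower for 11 of 199 against 224 of 8567. The reason was not tested. Most of the 20 leading LSC genes were not called, while 3 were called higher (Igfbp2, Wfdc18 and Tpm1) and 2 lower (Id3 and Pltp). Tpm1 had a ratio of 1.69, but 1.42 without cluster 1, under the rule. The ratio was 1.32 (1.28 to 1.36) for Krt14, 1.09 (1.02 to 1.16) for Ifitm3 and 0.869 (0.846 to 0.893) for Apoe. Near the threshold, Ergic1 was just inside at a ratio of 1.501 and Nasp just outside at 1.489.

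**Figure D3:**
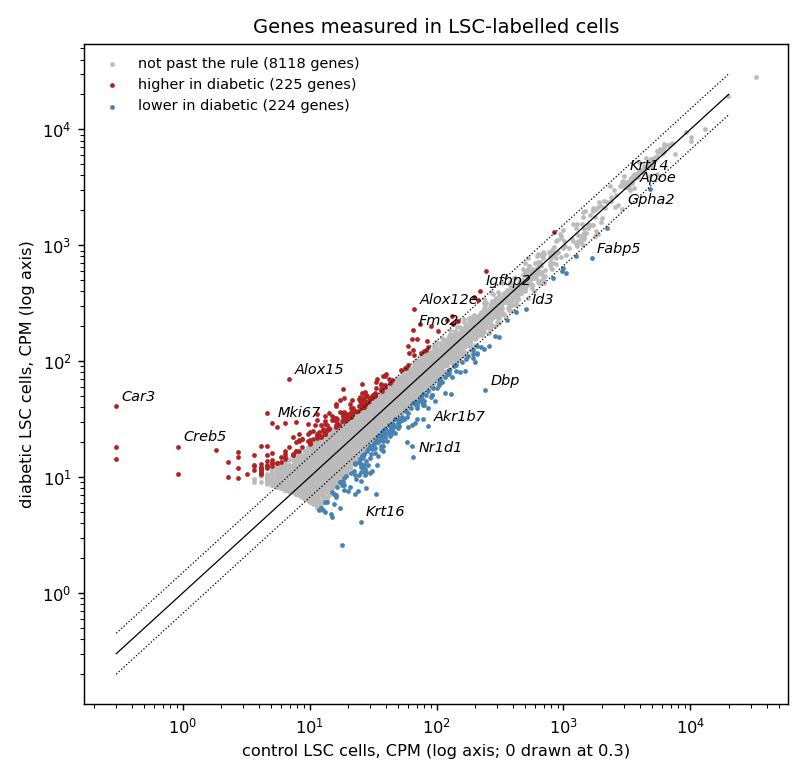
Level of each measured gene in diabetic (vertical) and control (horizontal) LSC cells, in CPM on log axes, with genes called higher in red and lower in blue; a control level of 0 is drawn at 0.3. The solid line marks equal levels and the dotted lines a ratio of 1.5 either way; Dbp and Nr1d1 lie below the lines and Alox12e, Alox15 and Creb5 above them.

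Gpha2 was lower in diabetic LSC cells and higher in all other diabetic epithelial labels. Its 2050 CPM in diabetic and 2875 CPM in control LSC cells differ 1.40-fold (1.36 to 1.45), under the 1.5-fold of the rule. In Basal cells it had 254 CPM in the diabetic and 115 CPM in the control library, a ratio of 2.21 (2.13 to 2.30). UMIs of Gpha2 were found in 90.6% of diabetic and 84.7% of control LSC cells, and in 54.0% of diabetic and 39.7% of control Squam cells, whose median depths were 21047 UMIs in the diabetic and 22382 UMIs in the control library. Inside the LSC label the level was lower in the diabetic cells of clusters 1, 2 and 3, and higher in those of cluster 4, with 2185 CPM in diabetic and 1616 CPM in control cells.

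Igfbp2 was higher in diabetic LSC cells, unevenly over the clusters. Its level of 406 CPM in diabetic and 222 CPM in control LSC cells is a ratio of 1.83 (1.65 to 2.03). UMIs were found in 69.8% of diabetic and 44.6% of control LSC cells, against 0.891% of diabetic and 1.07% of control Squam cells. In cluster 2, where Igfbp2 was highest, it had 761 CPM in diabetic and 778 CPM in control cells. In cluster 1 it had 164 CPM in diabetic and 42.6 CPM in control cells, and in cluster 3 401 CPM in diabetic and 206 CPM in control cells. Of the 332 diabetic counts in cluster 3, 132 lay in 1 cell poor in keratins that is described below, and without that cell Igfbp2 had 247 CPM in diabetic and 206 CPM in control cells there, a ratio of 1.20 (0.958 to 1.51). The ratio of Igfbp2 was 1.499 without cluster 1, just under the threshold, and 1.30 with the 4 clusters weighted alike in both libraries. Wfdc18, a small secreted protein of the whey acidic protein family, had 136 CPM in diabetic and 59.2 CPM in control LSC cells. Its ratio of 2.30 (1.90 to 2.80) became 1.36 with equal cluster weights. Further binding proteins of insulin-like growth factors were called higher. Igfbp3 had 18.5 CPM in diabetic and 4.13 CPM in control LSC cells, and Igfbp4 10.6 CPM in diabetic and 3.21 CPM in control cells. So 3 of the 10 measured genes of the list of these binding proteins and insulin genes were called. All 3 went upward, against 2.63% of all measured genes called higher. With the clusters weighted alike 0 of the 10 were called, and without cluster 1 the ratio of Igfbp3 was 2.75 and Igfbp4 fell under the minimum of 50 counts. The receptor genes Igf1r, at 152 CPM in diabetic and 136 CPM in control LSC cells, and Insr, at 21.9 CPM in diabetic and 28.9 CPM in control cells, were not called.

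Of 13 measured clock genes, 7 were called lower in diabetic LSC cells and 0 higher, led by Dbp and Nr1d1. Clock genes form the feedback loop that keeps daily time in most cells, and were looked at together only after their values were seen, so that nothing is read from their count. Dbp encodes a transcription factor of the clock's output and lies on chromosome 7. It had 56.0 CPM (258 counts) in diabetic and 242 CPM (528 counts) in control LSC cells, 4.32-fold lower (3.72 to 5.04). UMIs of Dbp were found in 137 of 331 diabetic and 166 of 202 control LSC cells, so its lower level was not set by a few cells. Nr1d1, which encodes the nuclear receptor REV-ERB alpha, a repressor in the clock loop, had 14.8 CPM in diabetic and 65.2 CPM in control LSC cells, 4.41-fold lower (3.28 to 5.98). Both were lower in the diabetic cells of each of the 4 clusters. In cluster 2 Dbp had 26.9 CPM in diabetic and 277 CPM in control cells, and in cluster 3 91.7 CPM in diabetic and 323 CPM in control cells.

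The other clock genes that were called differed less. The related receptor gene Nr1d2 had 64.7 CPM in diabetic and 105 CPM in control LSC cells, 1.62-fold lower. Per3, a period gene, was 1.72-fold lower at 82.3 CPM in diabetic and 141 CPM in control cells, and Tef, a relative of Dbp, 1.51-fold lower at 83.6 CPM in diabetic and 126 CPM in control cells. Without cluster 1 Tef was 1.46-fold lower, under the rule. The repressors Bhlhe40, 1.71-fold lower at 58.6 CPM in diabetic and 101 CPM in control cells, and Bhlhe41, 2.66-fold lower at 5.86 CPM in diabetic and 15.6 CPM in control cells, went the same way. Nfil3, a repressor at the same D-box sites as Dbp, had 25 counts in 23 diabetic LSC cells and 0 counts in control LSC cells. With the control sum set at 3 counts its ratio would be 3.94, a value that takes the 25 diabetic counts as exact. Nfil3 is under the minimum of the rule. Per1, Per2, Cry1, Cry2, Clock and Hlf were not called, and their ratios lay on both sides of 1. Arntl, Npas2 and Ciart were under the minimum as well, with 7, 19 and 7 counts in diabetic and 3, 9 and 13 counts in control LSC cells. In Basal cells Dbp had 232 CPM in the diabetic and 296 CPM in the control library, a ratio of 0.786 against 0.231 in LSC cells. Nr1d1 had 66.5 CPM in diabetic and 98.1 CPM in control cells there. Conj and Squam cells, like LSC cells, had over 2-fold less Dbp in the diabetic library. Dbp had 17.7 CPM in diabetic and 54.5 CPM in control Conj cells, and 18.1 CPM in diabetic and 47.0 CPM in control Squam cells.

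**Figure D4:**
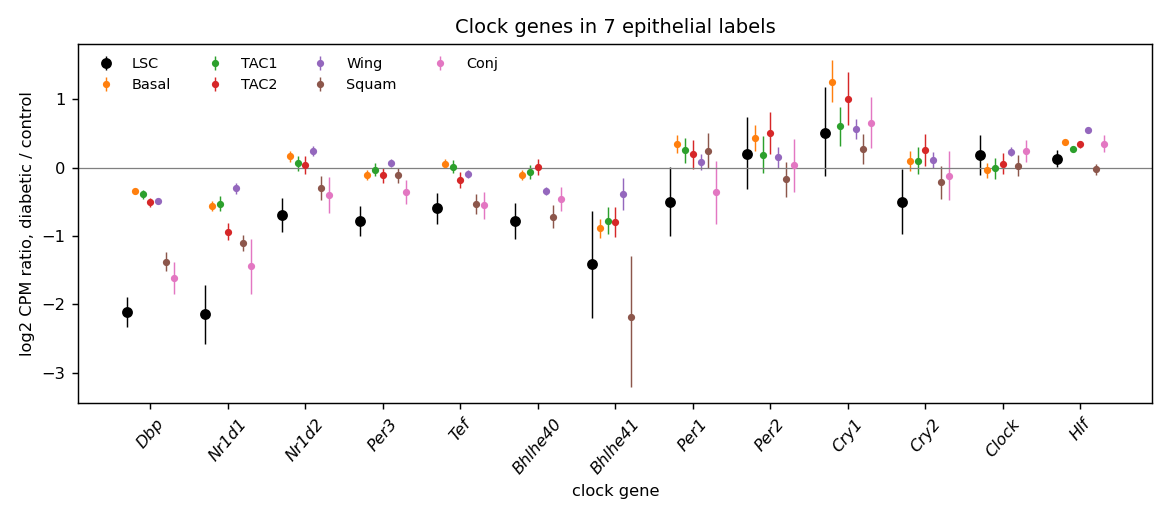
Log2 ratio of diabetic over control CPM for 13 clock genes in LSC cells (large black points) and in 6 other epithelial labels (small coloured points), for genes with 50 or more counts in a label; bars are 95% counting intervals. The ratios of Dbp and Nr1d1 are lower in LSC cells than in the 6 other labels, over 4-fold below the control level.

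The lipoxygenase genes Alox12e and Alox15 were higher in diabetic LSC cells, and Alox12 was lower. Lipoxygenases add oxygen to fatty acids and make lipid mediators. Alox12e, an epidermal-type lipoxygenase of the mouse, had 280 CPM in diabetic and 67.0 CPM in control LSC cells, a ratio of 4.18 (3.52 to 4.99). The size of this ratio depended on the setting. It was 2.74 with equal cell weights, 2.87 with the clusters weighted alike and 2.99 without cluster 1. With cells thinned to 5000 UMIs it was 2.499, and with the richest cell of each library left out 4.82. Alox15 had 69.9 CPM (322 counts) in diabetic and 6.89 CPM (15 counts) in control LSC cells, a ratio of 10.2 (6.07 to 18.4). That ratio was 5.33 with equal cell weights, 5.16 with cells thinned to 5000 UMIs and 7.14 without cluster 1. With the richest cell of each library left out it was 20.1. UMIs of Alox15 were found in 51 of 331 diabetic and 6 of 202 control LSC cells, with no count in cluster 3 of either library. In cluster 1 Alox12e had 392 CPM in diabetic and 64.4 CPM in control cells. Conj cells had more of both genes, with Alox12e at 375 CPM in the diabetic and 184 CPM in the control library, and Alox15 at 147 CPM in diabetic and 40.1 CPM in control cells. In Basal cells both genes were under 1 CPM. Cyp2b19, an epoxygenase of keratinocytes, had a ratio of 2.87 and Ptges, a prostaglandin E synthase, one of 1.73, while the platelet-type Alox12 was 1.62-fold lower. In all, 4 of 7 measured genes of the list of lipoxygenases and epoxygenases were called higher and 1 lower. Of all measured genes 2.63% were called higher and 2.61% lower. Without cluster 1 Alox12 had 18 counts, under the minimum.

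Several genes that are high in conjunctival cells shared that pattern. Tppp3, a tubulin-binding protein, had 210 CPM in diabetic and 74.4 CPM in control LSC cells, a ratio of 2.83 (2.39 to 3.36). It had 195 CPM in the diabetic and 143 CPM in the control Conj cells. Barx2, a homeobox factor, had 154 CPM in diabetic and 64.3 CPM in control LSC cells, against 112 CPM in diabetic and 59.1 CPM in control Conj cells. For both genes the higher level lay in clusters 1 and 2. Over the list of 11 measured conjunctival genes 1 was called higher and 2 lower, against 2.63% and 2.61% of all measured genes. The list had a median log2 ratio of 0.32. That median was not stable. It was 0.13 with the clusters weighted alike, 0.04 with equal cell weights and -0.01 without cluster 1. Without cells of high doublet score it was -0.08, and with cells thinned to 5000 UMIs -0.42. Leaving out LSC cells with a strong conjunctival signal gave 0.40. Krt13 had 452 CPM in diabetic and 464 CPM in control LSC cells. Whether conjunctival cells or RNA are part of these differences was not tested.

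Fmo2, a flavin monooxygenase that oxidises drugs and other small molecules, was higher in all 4 clusters. It had 184 CPM in diabetic and 65.2 CPM in control LSC cells, a ratio of 2.82 (2.36 to 3.40), against 16.2 CPM in diabetic and 8.10 CPM in control Basal cells. The transcription factor gene Creb5 was close to absent from control LSC cells. It had 84 counts in 58 diabetic cells (18.2 CPM) and 2 counts in 2 control cells (0.918 CPM), a ratio of 19.9 with a wide interval of 5.33 to 167. Creb5 was under 3 CPM in each of the other epithelial labels but stood at 255 CPM in diabetic and 93.7 CPM in control Immune cells. These Immune levels rest on few counts, with 31401 UMIs of all genes in 10 diabetic cells and 96077 UMIs in 26 control cells. The LIM-domain genes Crip1, at 597 CPM in diabetic and 245 CPM in control LSC cells, and Crip2, at 200 CPM in diabetic and 90.4 CPM in control cells, were both called higher. For Crip1 the direction differed inside the label, with 1178 CPM in diabetic and 549 CPM in control cells of cluster 2, but 110 CPM in diabetic and 207 CPM in control cells in cluster 3. Lcn2, the iron-binding lipocalin of innate defence, had 35.2 CPM in diabetic and 11.5 CPM in control LSC cells, and Anxa3, an annexin, 57.1 CPM in diabetic and 18.4 CPM in control cells.

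Some of the highest ratios came from 1 cell. A diabetic LSC cell in cluster 3, with 17756 UMIs over 4211 genes, held 187 of the 188 counts of the carbonic anhydrase gene Car3 and all 66 counts of the water channel gene Aqp1. It also held 83 of 84 counts of the neuropeptide gene Npy and 75 of 79 counts of the transporter gene Slc4a11. It had 375 counts of Apoe and 132 of Igfbp2. By contrast it had 0 counts of Krt14 and 1 count each of Krt5, Krt12 and Krt15, which other LSC cells contain in quantity. It is given no cell type here. Without that cell the ratio of Slc4a11 was 0.475 and that of the proteoglycan gene Dcn 0.917, and Nupr1, a stress-response gene with 35.4 CPM in diabetic and 4.59 CPM in control LSC cells, had a ratio of 3.47 in place of 7.71. The neutrophil and squamous cell gene S100a9 rested on 9 diabetic and 6 control cells, with 103 of its 134 diabetic counts in 1 cell. Without cluster 1 its ratio was 0.191, from 16 counts. Krt16, a keratin of stressed epithelium, had 19 counts in 8 diabetic cells and 55 counts in 6 control cells, with 1 count left without cluster 1. In all, 9 of the 225 higher genes and 1 of the 224 lower ones had over 50% of their counts in 1 cell. More calls depended on 1 cell. When each gene's richest cell in its higher library was left out, 158 of the 225 and 137 of the 224 still passed. With the richest cell of each library left out, 205 and 182 did.

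**Figure D5:**
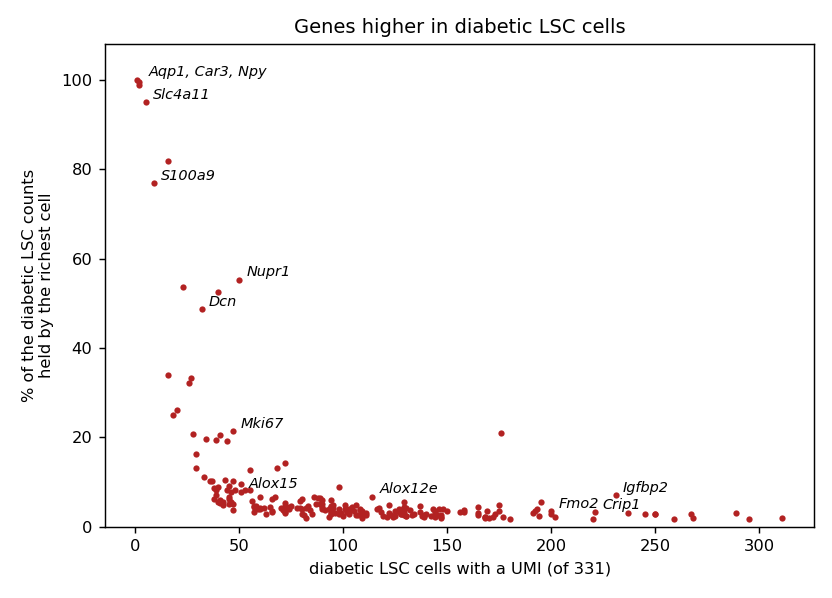
For each gene called higher in diabetic LSC cells, the number of the 331 diabetic LSC cells with a UMI (horizontal) and the percent of the gene's diabetic counts held by its richest cell (vertical). Aqp1, Car3, Npy and Slc4a11 are almost wholly in 1 cell, while Igfbp2, Fmo2 and Alox12e are each spread over more than 100 cells.

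Several genes of DNA replication and mitosis were higher in diabetic LSC cells. Of 15 measured S phase genes 7 were called higher and 0 lower, with a median log2 ratio of 0.79. Of 8 measured G2 and M phase genes 6 were called higher and 0 lower, with a median of 1.95. Over all 8567 measured genes 2.63% were called higher and 2.61% lower. The proliferation antigen gene Mki67 had 29.5 CPM (136 counts) in diabetic and 5.05 CPM (11 counts) in control LSC cells, a ratio of 5.85 (3.17 to 12.0). Top2a, a DNA topoisomerase of dividing cells, had 26.9 CPM in diabetic and 5.51 CPM in control cells, and the replication helicase gene Mcm5 28.9 CPM in diabetic and 9.64 CPM in control cells. A part of the counts lay in few cells, since 29 of the 136 diabetic Mki67 counts were in 1 cell. Without cluster 1 the ratio was 2.27 for Mki67 and 2.10 for Top2a, both no longer called. There 1 of 13 measured S phase genes was called higher, with a median log2 ratio of 0.42, and 0 of the 2 G2 and M genes still measured, with a median of 1.13. With cells thinned to 5000 UMIs, which sets all cells to 1 depth, 0 of the 7 S phase genes still measured were called, with a median of 0.28. With the clusters weighted alike 1 of 15 S phase and 5 of 8 G2 and M genes were called higher. Basal cells differed the other way for Mki67, with 4.97 CPM in the diabetic and 7.21 CPM in the control library.

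Counted per cell, the intervals of the cycling shares overlapped. With each cell thinned to 5000 UMIs, 31 of 295 diabetic LSC cells (10.5%, 7.25 to 14.6) and 8 of 169 control LSC cells (4.73%, 2.07 to 9.11) had 2 or more UMIs of the G2 and M list. Shallower cells, 36 diabetic and 33 control, were left out. Unthinned, the shares were 21.1% in diabetic and 10.4% in control LSC cells. Cluster 1 held much of the difference, with 12 of 77 diabetic and 0 of 64 control cells, a 0 that, taken as 3 cells at most, allows a share of up to 4.69% (Clopper-Pearson upper limit 5.60%). Without it the shares were 8.72% of diabetic and 7.62% of control LSC cells. With the S phase list 42.0% (36.3 to 47.9) of diabetic and 29.0% (22.3 to 36.5) of control LSC cells were counted, intervals that overlap slightly. In Basal cells the thinned G2 and M share was 4.53% in the diabetic and 6.09% in the control library.

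Lower genes included several of lipid handling and cell signalling. Fabp5, the epidermal fatty acid-binding protein, had 770 CPM in diabetic and 1666 CPM in control LSC cells, 2.16-fold lower (2.06 to 2.27). It was lower in clusters 1, 2 and 3, and higher in cluster 4, with 1027 CPM in diabetic and 798 CPM in control cells. Id3 had 282 CPM in diabetic and 508 CPM in control LSC cells, 1.80-fold lower (1.66 to 1.95), again in clusters 1, 2 and 3. In Basal cells Id3 had 48.0 CPM in the diabetic and 48.5 CPM in the control library. The other inhibitors of the family, Id1 at 344 CPM in diabetic and 383 CPM in control cells and Id2 at 139 CPM in diabetic and 144 CPM in control cells, were not called. Cited2, a transcriptional co-regulator, was 2.89-fold lower at 20.2 CPM in diabetic and 58.3 CPM in control LSC cells, and the immediate early gene Ier3 2.15-fold lower at 39.7 CPM in diabetic and 85.4 CPM in control cells. Keratin 18 (Krt18) was 2.04-fold lower at 18.5 CPM in diabetic and 37.6 CPM in control cells. Within the label Krt18 was highest in cluster 3, at 44.7 CPM in diabetic and 97.3 CPM in control cells. Pdzrn4, a ubiquitin ligase-like gene found almost only in LSC cells, had 7.17 CPM in diabetic and 33.5 CPM in control LSC cells, 4.67-fold lower (3.06 to 7.28).

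Other lower genes, many of them enzymes, had most of their counts in cluster 1, and outside it Akr1b7, Cyp2a5, Dsg1a, Ooep, Aldh3b2 and Adtrp each had fewer than 50 counts. Akr1b7, an aldo-keto reductase, had 27.6 CPM in diabetic and 85.8 CPM in control LSC cells, 3.11-fold lower. The cytochrome Cyp2a5 had 45.0 CPM in diabetic and 97.8 CPM in control cells, the desmoglein Dsg1a 52.3 CPM in diabetic and 131 CPM in control cells, and the oocyte factor gene Ooep 18.5 CPM in diabetic and 63.8 CPM in control cells. In cluster 1 Akr1b7 had 64.3 CPM in diabetic and 173 CPM in control cells, and it had 7 counts in diabetic and 4 counts in control cells of cluster 2. Cyp2a5 had 112 CPM in diabetic and 210 CPM in control cells in cluster 1 and few counts elsewhere. Dcxr, a xylulose reductase, was lower in all 4 clusters and had 31.9 CPM in diabetic and 78.5 CPM in control LSC cells. The remaining named genes were Gsta2, a glutathione transferase at 98.8 CPM in diabetic and 202 CPM in control cells, Cmas at 53.4 CPM in diabetic and 117 CPM in control cells, Aldh3b2 at 29.3 CPM in diabetic and 67.5 CPM in control cells, and Adtrp at 8.04 CPM in diabetic and 28.0 CPM in control cells.

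Cholesterol synthesis genes lay below the control level as a group. None of the 18 measured members had a ratio above 1, the median log2 ratio was -0.48, and 4 were called lower and 0 higher. Among all measured genes 2.61% were called lower. Insig1, a sterol sensor partner, had 9.34 CPM in diabetic and 25.2 CPM in control LSC cells. Mvk had 12.8 CPM in diabetic and 28.9 CPM in control cells, Sqle 24.1 CPM in diabetic and 47.3 CPM in control cells, and Fdft1 18.0 CPM in diabetic and 30.3 CPM in control cells, all enzymes of the pathway. Without cluster 1 these 4 genes fell under the minimum of 50 counts. There Insig1 was 5.44-fold, Sqle 2.53-fold, Mvk 2.38-fold and Fdft1 1.07-fold lower. The list median without cluster 1 was -0.46, with 2 of 10 measured genes called lower. Insig1 was lower in Basal cells too, with 11.8 CPM in the diabetic and 26.9 CPM in the control library. Interferon-induced genes had a median log2 ratio of -0.55, with 3 of 10 called lower and 0 higher, against 2.61% of all measured genes called lower. The ubiquitin-like Isg15 had 5.43 CPM in diabetic and 12.4 CPM in control LSC cells, and Ifit3 2.61 CPM in diabetic and 17.9 CPM in control cells. Both fell under the minimum of 50 counts without cluster 1. The remaining called gene, Ifi27, kept its call there at 1.62-fold lower, and the list median was -0.63. With equal cell weights 6 of the 10 genes were called lower. The median was -0.07 with cells thinned to 5000 UMIs, and 0.03 once cells with high doublet scores were left out. Of 10 MHC class I and processing genes 1 was called lower, with a list median of -0.26. It was the immunoproteasome gene Psmb9, at 17.4 CPM in diabetic and 36.7 CPM in control LSC cells. Without cluster 1, 4 of the 9 genes still measured were called lower, with a list median of -0.50.

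Glucocorticoid-induced genes split. Fkbp5, a chaperone partner of the glucocorticoid receptor, had 41.3 CPM in diabetic and 16.1 CPM in control LSC cells, a ratio of 2.57 (1.78 to 3.80) that was 4.88 without cluster 1, and Tsc22d3 227 CPM in diabetic and 122 CPM in control cells. Sgk1, a kinase induced by the same hormones, was 1.71-fold lower at 132 CPM in diabetic and 225 CPM in control LSC cells. In Basal cells Fkbp5 had 48.0 CPM in the diabetic and 5.47 CPM in the control library. Among signalling genes, the ligand gene Wnt6 had 64.1 CPM in diabetic and 25.7 CPM in control LSC cells, the Notch ligand gene Dll1 31.1 CPM in diabetic and 11.5 CPM in control cells, and Myc, a growth regulator, 35.8 CPM in diabetic and 14.2 CPM in control cells. Wnt6 was 1 of 12 measured Wnt genes called, and Dll1 1 of 10 Notch genes. Jund, an AP-1 subunit on the immediate early list with Myc, was also called higher, at 335 CPM in diabetic and 213 CPM in control LSC cells, though at 1.47-fold with the clusters weighted alike.

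Some gene groups had few or no called genes, and with 2.63% of all measured genes called higher and 2.61% lower, counts of 0 or 1 in lists of this size are near the background. Of 14 oxidative phosphorylation genes, 13 genes of the unfolded protein response and 11 heat shock genes, 0 were called, with median log2 ratios of 0.01, -0.10 and 0.19. Of 9 glucose-responsive genes 0 were called, and Txnip, a gene induced by glucose, had 712 CPM in diabetic and 657 CPM in control LSC cells, a ratio of 1.08 (1.02 to 1.15). In the hemidesmosome and basement membrane list 1 of 15 genes was called, the laminin receptor subunit Itga3, at 41.9 CPM in diabetic and 27.5 CPM in control LSC cells. Its ratio of 1.52 became 1.44 without cluster 1, under the rule. Col17a1, the hemidesmosomal collagen, had 650 CPM in diabetic and 628 CPM in control cells, and Itgb4, the integrin beta-4 of the same structure, 128 CPM in diabetic and 118 CPM in control cells. Of the limbal stem cell candidates, 2 of 17 were called higher, the cadherin Cdh3 at 22.4 CPM in diabetic and 11.5 CPM in control LSC cells and the transcription factor gene Cebpd at 87.3 CPM in diabetic and 56.9 CPM in control cells, and the list median was 0.05. The ratio of Cebpd was 1.53, but 1.14 without cluster 1, 1.37 without cells of high doublet score and 1.28 with the clusters weighted alike, each under the rule.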

How the data were processed

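The deposited table holds raw UMI counts per gene and cell. Cell Ranger 5.0.0, Seurat 4 and mm10 are named, without roles, per the submitters' processing notes, with filters on cells not stated there. Labels and group of each cell came from the authors' cell table, whose deposited UMAP coordinates (a score) were not used. Counts were summed per label and library and divided by their total. Intervals are exact Poisson for CPM, exact conditional binomial for ratios and Clopper-Pearson for shares, at 95%. Clusters came from Leiden at resolution 0.3 on 20 components of 1000 variable genes. Scrublet marked 0 cells automatically, so an alternative left out the 8% of each library with the highest scores.

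Named genes followed a rule: the 20 raised and 8 lower in LSC cells with the largest margins, the 15 per direction with the largest ratio after adding 10 CPM, at 20 CPM or more, the 6 per direction furthest from the other labels, the markers, and called list members. The rule skipped Y-linked, ribosomal, mitochondrial and unnamed genes and Xist. Members and 37 gene lists were chosen with earlier results of these data known, and clock genes and single-cell genes after values were seen; 1 clock gene is not reported here. The rule of size was tried on simulated Poisson sums, the counting error that its own intervals assume. The simulation held no spread between cells or animals, so it does not cover that spread. Positions came from GENCODE M21. Clustering used scanpy 1.11.5 with leidenalg 0.10.2, intervals scipy 1.17.1, and tables pandas 2.3.3 under Python 3.11.15.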

Additional observations from a re-analysis of the deposited data

Results flagged for a closer look

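For 4 named genes the diabetic over control ratio went one way in LSC cells and the opposite way in Basal cells, with counting intervals on opposite sides of 1. With 1 library per group, the difference between labels was not tested. The ratio of Gpha2 was 0.713 (0.691 to 0.736) in LSC cells and 2.21 (2.13 to 2.30) in Basal cells. For Mki67 it was 5.85 (3.17 to 12.0) in LSC cells and 0.689 (0.561 to 0.845) in Basal cells. For Krt18 it was 0.491 (0.358 to 0.673) in LSC cells and 2.55 (2.14 to 3.06) in Basal cells. For Ier3 it was 0.466 (0.378 to 0.574) in LSC cells and 1.28 (1.19 to 1.37) in Basal cells.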

How the results depend on the processing

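No paired analysis was possible because each group is 1 library. The 225 higher and 224 lower genes became 102 higher and 118 lower with a minimum of 200 counts. With cells thinned to 5000 UMIs, where shallower cells drop out and fewer counts are left, 81 were higher and 134 lower. Of these, 52 and 76 were among the original calls. With equal cell weights 312 were higher and 309 lower, of which 164 and 175 were original calls. Without cluster 1, an alternative chosen after seeing the data, 162 were higher and 141 lower, of which 96 and 80 were among the original calls. Of 92 called genes examined singly, 37 missed the rule without cluster 1, 22 with clusters weighted alike, 44 after thinning, 14 with equal cell weights and 10 without high doublet scores. The 199 genes raised in LSC cells became 99 after thinning, 95 with a fold of 4 and 801 against the 6 labels pooled. The 18 lower ones became 29 without cells of high doublet score, 94 without cluster 1, 54 after subtracting the all-cell profile, 2 with a fold of 4 and 414 against the pooled labels. The ratio of the LSC share stayed between 1.64 and 2.19. The cycling share was 21.0% in diabetic and 17.2% in control LSC cells with 1 UMI, 5.08% in diabetic cells with 3 UMIs, 5.94% in diabetic cells at 3000 UMIs, 16.5% in diabetic and 10.1% in control cells at 8000 UMIs, and 42.0% in diabetic and 29.0% in control cells with the S phase list. Without cluster 1 the ratio reversed for S100a9 (0.191), Cyp2a5 (1.26) and Cenpf (0.683). Without the Car3-rich cell the ratio fell below 1 for Slc4a11 (0.475, from 4 counts in each library), Dcn (0.917) and Ccn2 (0.823). With each gene's richest cell left out it did so for Slc4a11 (0.946) and Ccn2 (0.998). Where construction does not show the cause, the cause was not tested.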
